A study of Mus musculus with 15 samples.

Results

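The genes described here encode the subunits of the receptors for glutamate and GABA. They were taken by gene symbol as the AMPA (Gria), NMDA (Grin), kainate (Grik), delta (Grid) and metabotropic (Grm) glutamate receptor genes, the GABA-A receptor genes (Gabr) and the GABA-B receptor genes (Gabbr). This gave 42 genes of the 19261 with an expression value in every mouse. Expression was given as TPM, transcript abundance per length of transcript and scaled to a fixed total per library, the scale on which levels of different genes are set side by side here. The labels describe total RNA libraries and the tables a 3′ mRNA analysis. If the latter applies, division by length distorts levels between genes, and with them the family shares and the order of levels given below. The RNA was from 1 dissection that joined corpus callosum and neocortex, in 15 wild-type animals divided into 3 sets of 5. The control set was untreated. Vehicle mice were fed 0.25% (w/w) cuprizone, a copper chelator that kills oligodendrocytes, for 3 weeks and were given vehicle. Siponimod mice had the same cuprizone feeding and 3.125 mg/kg siponimod, a modulator of sphingosine 1-phosphate receptors. The labels give the dose of siponimod but not its schedule, and no strain, sex or age. Controls had neither cuprizone nor a vehicle.

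Glutamate is the main excitatory transmitter of the cortex. It opens AMPA, NMDA and kainate receptors, which are ion channels built of several subunits, and acts more slowly through metabotropic receptors coupled to G proteins. GABA, the main inhibitory transmitter, opens chloride channels of the GABA-A type and acts through G protein-coupled GABA-B receptors. The subunits that a cell makes set the kinetics, ion selectivity and pharmacology of its synapses. In the cortex most of these genes are transcribed mainly in neurons, while oligodendrocyte precursors and astrocytes also carry some of them.

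The tissue carried the markers of neurons and of myelinating cells that its label calls for. Summed TPM of 7 pan-neuronal markers ran from 4740 to 4840 in control mice, 4280 to 4720 in vehicle mice 2 to 5 and 4370 to 4990 in siponimod mice. Summed TPM of 8 oligodendrocyte markers was 3500 to 5340 in control mice, 538 to 1330 in vehicle mice 2 to 5 and 716 to 1460 in siponimod mice. The library of vehicle mouse 1 was unlike the other 14. The neuronal non-coding RNA Bc1 took 35.3% of its TPM and 6.02% to 10.8% of theirs, and its median tested gene had 5.54 TPM against 11.8 to 13 TPM. Counts and the main fold changes are therefore given with that mouse and without it. TPM keeps no sequencing depth, so no counting error can be given. The labels name each mouse separately, and the error stated here is the spread between mice.

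Of the 42 subunit genes, 39 passed the filter on low values (above 0.5 TPM in at least 5 mice). These were all 4 AMPA, 6 of 7 NMDA, all 5 kainate, both delta, all 7 metabotropic, 13 of 15 GABA-A and both GABA-B genes. The 3 that did not pass were Grin3b, Gabre and Gabrr2, with at most 0.807, 0.396 and 1.15 TPM in any mouse. Gabra6, a subunit of cerebellar granule cells, and Grm6, a receptor of retinal bipolar cells, had no entry in the deposited values and were therefore not analysed.

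None of the 39 subunit genes passed the test in any comparison, in a tissue where 8 of 8 oligodendrocyte markers were lower in both cuprizone-fed groups than in controls. The test was limma on log2(TPM + 0.5) with Benjamini-Hochberg adjustment over all 17714 tested genes, called at an adjusted p under 0.05. In vehicle against control it called 0 of 39 subunit genes and 1.24% of all tested genes (220), and in siponimod against control 0 of 39 and 0.745% (132). In siponimod against vehicle it called 0 of 39 and 0.0% (0). Shares this low would put less than 1 call among 39 genes, so a count of 0 is near the background. Leaving out vehicle mouse 1, the counts were still 0 of 39, against 3.68% of all tested genes (652) in vehicle against control, 2.78% (492) in siponimod against control and 0.0% (0) in siponimod against vehicle. The 220 calls in vehicle against control were 75 higher and 145 lower with all mice. A separate fit to libraries scaled to a common median called 426 genes there, 244 higher and 182 lower. The 132 calls in siponimod against control were 37 higher and 95 lower, and scaling to a common median gave 76 higher and 133 lower. Centring libraries within classes of transcript length gave 342 higher and 218 lower in vehicle against control, and 108 and 170 in siponimod against control. Fold changes below are relative to the median gene of the comparison, which lay at -0.21 log2 in vehicle against control with all mice and at -0.03 without vehicle mouse 1. The p-values test the difference before that shift. In whole tissue, fewer cells of a type and less RNA per cell cannot be told apart.

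At an unadjusted p under 0.05, limma gave 3 subunit genes in vehicle against control, all lower, where 9.94% of all tested genes reached that level. It gave 0 in siponimod against control (4.67% of all) and 2 in siponimod against vehicle, both higher (4.93% of all). Without vehicle mouse 1 these counts were 5, 2 and 3 of 39, beside 15.7%, 13.3% and 8.48% of all tested genes. The subunit genes were thus near or below the share of all genes in each comparison.

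How small the differences were could be bounded once vehicle mouse 1 was left out. The 95% limma interval of the fold change then lay within 0.5 log2 of the median gene for 39 of 39 subunit genes in vehicle against control, 39 of 39 in siponimod against control and 38 of 39 in siponimod against vehicle. Among all tested genes, which were not matched to the subunit genes for level, this held for 75.3%, 77.6% and 79.7%. Gabrq, with a control mean of 0.602 TPM, lay near the 0.5 added to each value, which narrows its intervals. The authors' standard errors for it were 0.36 in vehicle against control and 0.30 in siponimod against control, so its bound is weak. With all mice, only 12, 15 and 11 of the 39 intervals lay within that bound. The median distance from the estimate to either end of an interval was 0.17 log2 for subunit genes in vehicle against control without vehicle mouse 1 and 0.47 with it. The exception was Gabra2 in siponimod against vehicle, described with the GABA-A subunits. The median relative fold change of the 39 genes was -0.05, -0.03 and 0.01 log2 in these comparisons without vehicle mouse 1, and -0.17, -0.03 and 0.11 with it, where the median of all tested genes is 0 by construction. The comparisons share groups, so their values for a gene are not independent.

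**Figure D1:**
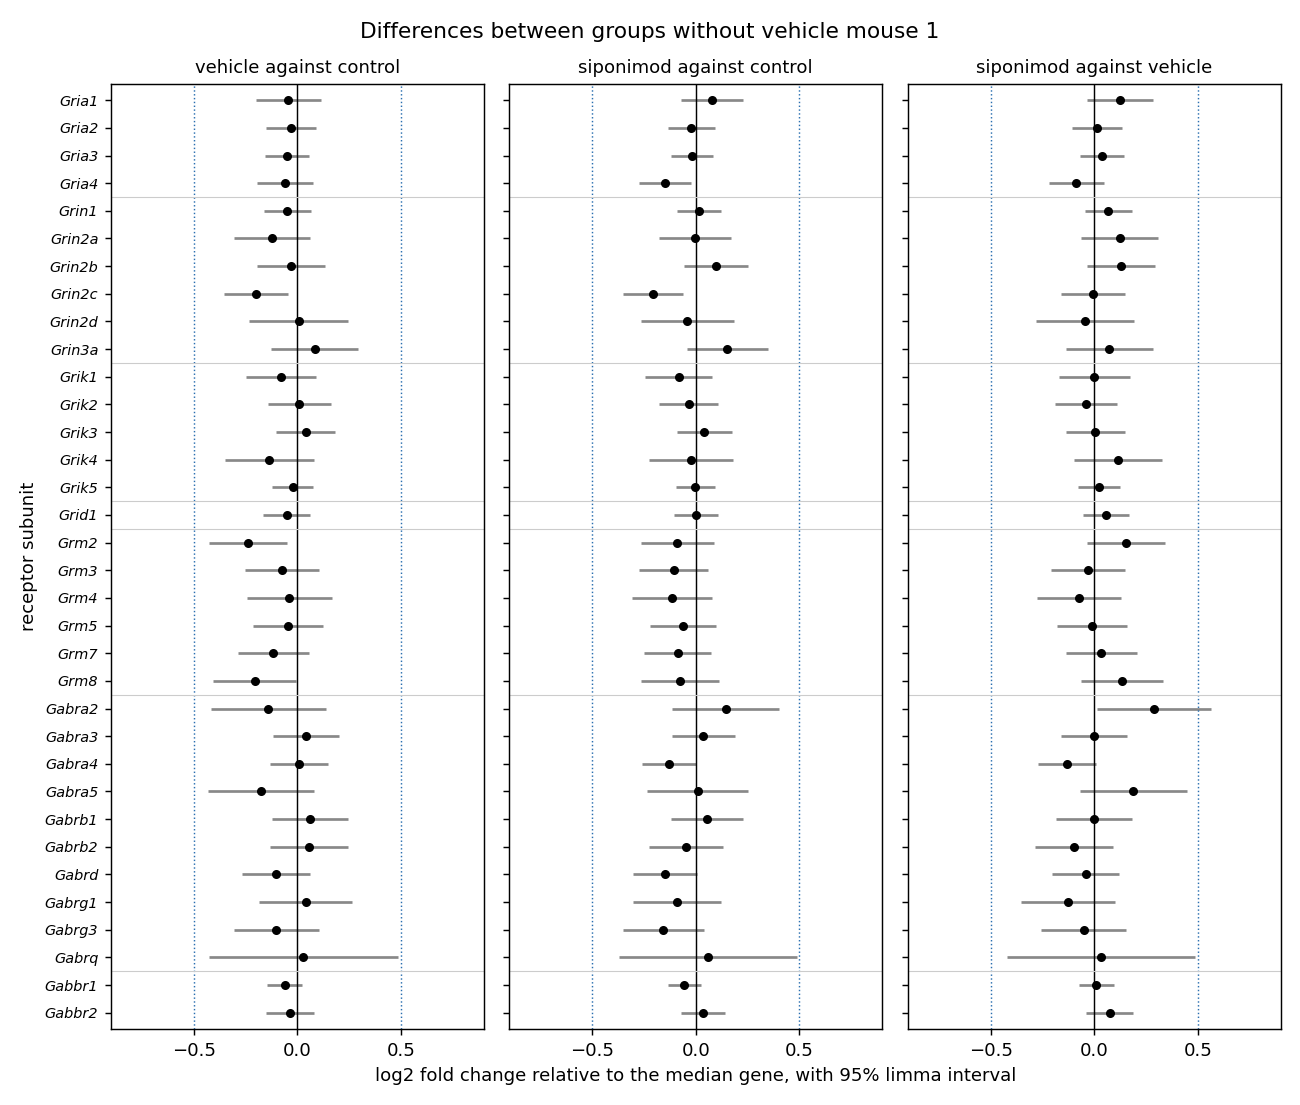
Relative log2 fold change of 34 of the 39 tested subunit genes (points) with its 95% limma interval (lines) in the 3 comparisons, without vehicle mouse 1; grey horizontal lines part the families and dotted lines mark 0.5 log2 in either direction. All intervals shown but that of Gabra2 in siponimod against vehicle lie between the dotted lines.

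The authors' deposited table called 3 of these genes, each by a small amount, and these were named here because of those calls. Grin2c was lower in siponimod than in control mice by the authors' deposited table (log2 fold change -0.24, standard error 0.06, adjusted p = 0.00166). Gria4 was lower in the same comparison of the authors' deposited table (-0.14, standard error 0.04, adjusted p = 0.0118). Grm2 was lower in vehicle than in control mice by the authors' deposited table (-0.27, standard error 0.09, adjusted p = 0.045). These were 2 of 42 subunit genes in siponimod against control, where 5.14% of all genes of the authors' deposited table were called (2.6% lower), and 1 of 42 in vehicle against control, where 6.66% were called (2.8% lower). The authors' deposited table for siponimod against vehicle called 0 of its 38 subunit genes and 2.05% of all its genes. In limma without vehicle mouse 1 the same differences, before the shift by the median gene, were -0.20 for Grin2c (adjusted p = 0.175) and -0.14 for Gria4 (adjusted p = 0.302). For Grm2 it was -0.27 (adjusted p = 0.118). Relative to the median gene these 3 values were -0.21, -0.15 and -0.24. In vehicle against control the authors gave 0.06 for Gabrb2 and -0.03 for Gabbr2. Limma gave 0.03 and -0.07 without vehicle mouse 1 and -0.74 and -0.61 with it, before the shift by the median gene. Whether that mouse entered the authors' fit, and with what weight, was not tested, so their calls may not compare 5 mice with 5.

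To show the start regions of the 3 genes called in the authors' deposited table, the promoter windows from RefSeq on GRCm38.p6 are printed below, from 250 bases before to 50 bases after the annotated start, 5′ to 3′ on the strand of the gene. Capitals mark GGGCGG or its reverse complement CCGCCC, the core of the GC box that factors of the Sp family bind. Windows were found for 27 of the 42 subunit genes.
Grin2c (chr11:115267194-115267493, minus strand): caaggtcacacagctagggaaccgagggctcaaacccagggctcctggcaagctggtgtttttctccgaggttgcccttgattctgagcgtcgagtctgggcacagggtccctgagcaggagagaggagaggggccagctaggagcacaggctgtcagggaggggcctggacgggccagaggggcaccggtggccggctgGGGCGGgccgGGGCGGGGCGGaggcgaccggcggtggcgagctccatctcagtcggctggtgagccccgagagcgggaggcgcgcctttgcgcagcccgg
Gria4 (chr9:4796185-4796484, minus strand): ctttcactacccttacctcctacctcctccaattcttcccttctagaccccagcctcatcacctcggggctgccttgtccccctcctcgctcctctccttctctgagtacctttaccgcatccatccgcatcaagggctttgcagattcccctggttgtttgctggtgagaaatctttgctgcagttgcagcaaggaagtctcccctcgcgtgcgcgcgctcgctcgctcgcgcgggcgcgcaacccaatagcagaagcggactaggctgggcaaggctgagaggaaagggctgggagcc
Grm2 (chr9:106656060-106656359, minus strand): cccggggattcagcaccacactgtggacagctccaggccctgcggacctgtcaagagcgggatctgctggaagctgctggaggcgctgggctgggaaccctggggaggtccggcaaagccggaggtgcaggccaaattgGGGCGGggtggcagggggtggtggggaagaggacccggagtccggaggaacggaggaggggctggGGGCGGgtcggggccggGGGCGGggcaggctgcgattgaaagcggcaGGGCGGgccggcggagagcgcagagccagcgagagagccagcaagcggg
GGGCGG in either orientation occurred at 3 places in the Grin2c window, of which 2 overlap by a base, at 4 places in the Grm2 window and at 0 in the Gria4 window. Of all 32851 windows in that reference 35.7% held it, and of the 34 windows of subunit genes 18 did. TATAAA or its reverse complement, held by 13.6% of all windows, and TGACGTCA, its own reverse complement and the full cyclic AMP response element, held by 1.79%, were in none of the 3. The GC content was 70.0% in the Grin2c window, 72.0% in that of Grm2 and 59.7% in that of Gria4, against a median of 52.7% over all windows. These matches describe the letters of the windows; no binding was measured.

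The AMPA receptor genes carried the largest share of ionotropic glutamate receptor transcripts. Their summed TPM was 508 ± 37.4 in control mice (SD, n = 5), 483 ± 13.4 in vehicle mice without mouse 1 (n = 4) and 507 ± 14.2 in siponimod mice (n = 5). Gria2, whose edited subunit keeps calcium out of the channel, made up 45.8% ± 0.499 of the sum in controls, and Gria1, a subunit that moves into synapses in long-term potentiation, 23.6% ± 1.19. Gria3 made up 19.5% and Gria4, abundant in interneurons, 11.1%.

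Gria2 measured 202, 237, 242, 231 and 250 TPM in control mice 1 to 5, 92.9, 212, 221, 237 and 220 TPM in mice 1 to 5 of the vehicle group, and 224, 239, 240, 217 and 229 TPM in siponimod mice 1 to 5. The siponimod mice lay inside the control range, and so did all vehicle mice except mouse 1. Gria1 measured 105, 116, 122, 116 and 140 TPM in control mice, 31.2, 117, 106, 114 and 116 TPM in the vehicle group, and 121, 128, 120, 147 and 121 TPM in siponimod mice. All 5 siponimod mice lay above all 5 vehicle mice, which was so for 2.07% of all tested genes in one direction or the other, and both groups overlapped the controls. The fold change of Gria1 in siponimod against vehicle was 0.13 log2 without vehicle mouse 1 (95% interval -0.03 to 0.28, adjusted p = 0.589, limma) and 0.32 with it (-0.27 to 0.91, adjusted p = 0.496, limma). Gria4 measured 51.8, 55.4, 58.9, 59.7 and 56.2 TPM in control mice, 17.7, 52.2, 56.5, 53.9 and 49.4 TPM in the vehicle group, and 46.6, 54.1, 55.9, 46.9 and 52.5 TPM in siponimod mice. Its siponimod values reached below the controls in mice 1 and 4 and overlapped them in the rest. Gria3 ran from 88.5 to 106 TPM in controls and from 93.6 to 104 TPM in siponimod mice.

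The NMDA receptor genes summed to 379 ± 6.68 TPM in control mice (n = 5), 357 ± 26.2 in vehicle mice without mouse 1 (n = 4) and 385 ± 16.4 in siponimod mice (n = 5). Grin1, the subunit that every NMDA receptor needs, held 72.1% ± 1.86 of that sum in controls. Grin2b held 9.61% and Grin2a 8.06%; their products bind glutamate in the channel, and the balance between them shifts from Grin2b to Grin2a as the cortex matures. Grin2c held 5.69%, Grin3a 2.6% and Grin2d, found in interneurons, 1.87%.

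Grin1 measured 291, 273, 260, 271 and 272 TPM in control mice, 73.2, 230, 252, 278 and 277 TPM in the vehicle group, and 278, 288, 274, 263 and 285 TPM in siponimod mice. All siponimod values lay within the control range, while vehicle mice 1, 2 and 3 lay below it. Exons of Grin1 share 13.5% of their bases with Grin1os on the other strand. The labels do not say whether quantification used strand. Grin2a measured 26.3, 31.6, 31, 28.8 and 35 TPM in control mice, 8.66, 26.2, 27.1, 30 and 26.1 TPM in the vehicle group, and 28.6, 33.3, 33.1, 26 and 32.3 TPM in siponimod mice. Grin2b measured 31.4, 38.5, 40, 36 and 36 TPM in control mice, 64.1, 32.7, 33.4, 37.9 and 35.2 TPM in the vehicle group, and 39.1, 44.2, 38.2, 34.3 and 40.1 TPM in siponimod mice. The groups overlapped for both genes, and Grin2b was the only one of the 39 with its highest value of all mice in vehicle mouse 1.

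The ratio of Grin2a to Grin2b, computed on TPM + 0.5, was 0.777 to 0.974 in control mice and 0.735 to 0.869 in siponimod mice. In vehicle mice 2 to 5 it was 0.745 to 0.813, and in vehicle mouse 1 it was 0.142. No comparison of this ratio passed a two-sided exact permutation test over mice (smallest adjusted p = 0.471 over 9 tests of 3 ratios). Without vehicle mouse 1 the log2 ratio differed by -0.09 between vehicle and control mice (exact permutation p = 0.222) and by -0.10 between siponimod and control mice (exact permutation p = 0.214).

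Grin2c, an NMDA subunit that the rodent cortex also expresses in astrocytes, had the smallest adjusted p of the 39 genes in both comparisons with controls without vehicle mouse 1. It measured 22.6, 21.1, 21, 20.7 and 22.3 TPM in control mice, 8.12, 18.7, 16.5, 21.5 and 17.1 TPM in the vehicle group, and 20, 18.3, 17.8, 19.7 and 17.8 TPM in siponimod mice. All siponimod mice lay below all control mice, which was so for 4.83% of all tested genes in one direction or the other, whereas vehicle mouse 4 lay inside the control range. The fold change in limma was -0.20 in vehicle against control (95% interval -0.35 to -0.04, adjusted p = 0.106) and -0.21 in siponimod against control (-0.35 to -0.06, adjusted p = 0.175), both without vehicle mouse 1. With it these values were -0.24 (-0.64 to 0.16) and -0.21 (-0.61 to 0.19). In siponimod against vehicle the fold change was -0.01 (-0.16 to 0.15) without that mouse and 0.04 (-0.36 to 0.44) with it. Summed TPM of 7 astrocyte markers was 823 to 954 in controls, 1150 to 1600 in vehicle mice 2 to 5 and 993 to 1500 in siponimod mice. Most of that difference was Gfap, with means of 89.5, 392 and 312 TPM in controls, vehicle mice 2 to 5 and siponimod mice. In the same order, Slc1a3 (204, 252 and 253 TPM), Aldh1l1 (43.3, 58.4 and 57.3 TPM) and Gjb6 (46.9, 62.2 and 60.2 TPM) were also above controls. Aqp4 had 38.9, 41.6 and 39.2 TPM, Slc1a2 405, 388 and 374 TPM and Gja1 84.3, 74.8 and 76.8 TPM. The part of astrocytes in the Grin2c values was not tested.

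**Figure D2:**
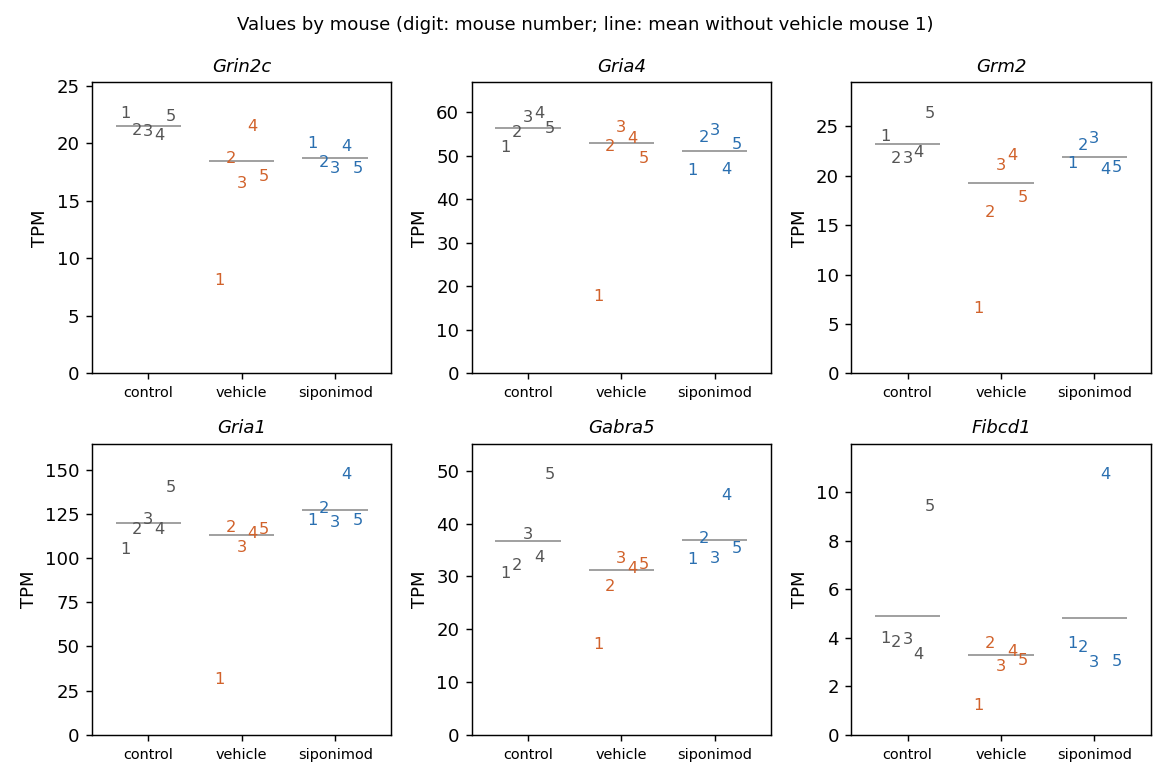
TPM of 5 subunit genes and of Fibcd1, a marker of the hippocampal CA1 field, in each mouse (digits are mouse numbers, lines are group means without vehicle mouse 1; axes start at 0). For Grin2c the siponimod digits lie below the control digits, and for Gria1, Gabra5 and Fibcd1 the highest digits are control mouse 5 and siponimod mouse 4.

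Kainate receptor genes summed to 183 ± 7.12 TPM in control mice (n = 5), 176 ± 8.72 in vehicle mice without mouse 1 (n = 4) and 183 ± 4.93 in siponimod mice (n = 5). Grik5, an auxiliary high-affinity subunit that needs a partner to form a channel, held 64.0% ± 1.5 of the sum in controls, and the pore-forming Grik2 held 13.9%. Grik2 measured 22.3, 26.6, 26.7, 26 and 25.4 TPM in control mice, 6.34, 27.1, 22.8, 26.7 and 23.5 TPM in the vehicle group, and 25.3, 27, 25.1, 24.1 and 22.9 TPM in siponimod mice. The groups overlapped, apart from vehicle mouse 1. Grik3 ran from 21.2 to 23.1 TPM in controls, Grik4 from 9.54 to 14.3 and Grik1 from 6.53 to 7.61. The 5 relative fold changes lay between -0.14 and 0.04 log2 in vehicle against control without vehicle mouse 1 and between -0.28 and -0.05 with it. The delta genes, whose products organise synapses, summed to 27.9 ± 0.569 TPM in controls. Grid1 measured 22, 21.8, 21.2, 21.2 and 20.9 TPM in controls, and vehicle mice had 9.56, 19.1, 20.6, 20.4 and 20.9 TPM. It was the only subunit gene whose control and vehicle mice did not overlap (5.02% of all tested genes with all mice, 7.61% without vehicle mouse 1), though by a margin smaller than the rounding of these values. Its fold change was -0.05 without vehicle mouse 1 (95% interval -0.16 to 0.06, adjusted p = 0.505, limma) and -0.08 with it (-0.44 to 0.29), and the siponimod mice, at 23.5, 21.9, 20.2, 21.3 and 21.1 TPM, spanned the control range.

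Metabotropic receptor genes summed to 190 ± 7.85 TPM in control mice (n = 5), 175 ± 12 in vehicle mice without mouse 1 (n = 4) and 181 ± 13.6 in siponimod mice (n = 5). Grm5, a receptor coupled to phospholipase C, held 33.5% ± 2.31 of the sum in controls, Grm3, which neurons and astrocytes share, 18.8%, and Grm2, a presynaptic brake on glutamate release, 12.3%. Without vehicle mouse 1, 6 of the 7 genes had a relative fold change below 0 in vehicle against control, with a median of -0.07 log2, and with it all 7 did, with a median of -0.22. None passed the test.

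Grm2 measured 24, 21.7, 21.7, 22.4 and 26.3 TPM in control mice, 6.58, 16.3, 21, 22.1 and 17.8 TPM in the vehicle group, and 21.2, 23.1, 23.8, 20.6 and 20.8 TPM in siponimod mice. Vehicle mice 1, 2, 3 and 5 lay below every control mouse and vehicle mouse 4 lay among them, while the siponimod values overlapped both groups. In limma the fold change without vehicle mouse 1 was -0.24 in vehicle against control (95% interval -0.43 to -0.05, adjusted p = 0.118) and -0.09 in siponimod against control (-0.27 to 0.09, adjusted p = 0.76). With that mouse the first was -0.35 (-0.86 to 0.15, adjusted p = 0.461). Exons of Grm2 share 9.6% of their bases with Gm28111 on the other strand. Grm5 measured 53.6, 70, 67.2, 65.2 and 62.6 TPM in control mice, 17.5, 60.4, 53.3, 65.3 and 62.2 TPM in the vehicle group, and 58.2, 67.9, 65.1, 57.4 and 57.7 TPM in siponimod mice. Grm3 measured 31.9, 40.9, 34.1, 36.7 and 35.5 TPM in control mice, 10.4, 35.4, 32.5, 37 and 28.3 TPM in the vehicle group, and 31.5, 36.3, 35.5, 30.7 and 32.8 TPM in siponimod mice. Groups overlapped for both. Grm4, Grm7 and Grm8, which couple to inhibition of adenylyl cyclase, had control means of 13.9, 27.1 and 9.09 TPM. Of these, Grm8 had the smallest adjusted p in vehicle against control without vehicle mouse 1, where its fold change was -0.21 (95% interval -0.41 to -0.01, adjusted p = 0.217, limma).

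GABA-A receptors are built of 5 subunits, most often alpha, beta and gamma. Their 15 genes summed to 828 ± 35.5 TPM in control mice (n = 5), 784 ± 51.6 in vehicle mice without mouse 1 (n = 4) and 801 ± 45.2 in siponimod mice (n = 5). Gabra3 held 15.7% ± 1.74 of the alpha transcripts in controls and Gabra4 13.0% ± 0.839, and Gabrb2 held 34.3% ± 0.956 of the beta transcripts. Gabrd, which replaces gamma in receptors outside the synapse, had a control mean of 76.4 TPM. Most of these genes lie in clusters of mixed subunit classes on GRCm38. Gabrg1, Gabra2, Gabra4 and Gabrb1 lie within chr5:70751047-72149037, and Gabre, Gabra3 and Gabrq within chrX:72255999-72842602. Levels within a cluster differed widely: control means ran from 57.0 TPM for Gabra4 to 9.92 TPM for Gabrg1 on chromosome 5, and from 69.1 TPM for Gabra3 to 0.602 TPM for Gabrq and 0.193 TPM for Gabre on chromosome X.

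Gabrb2 measured 48.6, 56.5, 56.3, 57 and 54.9 TPM in control mice, 3.47, 50.6, 52.9, 61.6 and 58 TPM in the vehicle group, and 51.8, 58.7, 59.2, 42.4 and 55.6 TPM in siponimod mice. The groups overlapped, and the value of vehicle mouse 1 lay far below all others. The relative fold change of Gabrb2 in vehicle against control was 0.06 log2 without vehicle mouse 1 (95% interval -0.13 to 0.25, adjusted p = 0.934, limma) and -0.53 with it (-1.71 to 0.66, adjusted p = 0.463), so that this mouse set its sign. Over the 13 tested GABA-A genes the relative fold changes lay between -0.18 and 0.06 log2 in that comparison without vehicle mouse 1, with 6 above 0 and 7 below, and between -0.53 and 0.05 with it, with 3 above 0 and 10 below.

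Gabra2, an alpha subunit of synaptic receptors, had the interval that reached farthest from the median gene without vehicle mouse 1. It measured 18.1, 26.6, 27.2, 20.4 and 22.1 TPM in control mice, 16.5, 25.5, 21.1, 19.6 and 15.5 TPM in the vehicle group, and 23.2, 27, 26.5, 25.5 and 24.1 TPM in siponimod mice. The siponimod mice were close together and above the control median, but vehicle mouse 2 lay among them. The fold change in siponimod against vehicle was 0.29 log2 without vehicle mouse 1 (95% interval 0.01 to 0.56, adjusted p = 0.556, limma) and 0.17 with it (-0.14 to 0.48, adjusted p = 0.496, limma). Gabra5, an alpha subunit of receptors outside the synapse that is most abundant in the hippocampus, measured 30.6, 32, 38, 33.5 and 49.2 TPM in control mice, 17.1, 28.1, 33.4, 31.4 and 32.2 TPM in the vehicle group, and 33.1, 37.1, 33.4, 45.4 and 35.2 TPM in siponimod mice. Its highest values were those of control mouse 5 and siponimod mouse 4. The same mice were the highest of their groups for Gria1, at 140 and 147 TPM, and for Fibcd1, a marker of the hippocampal CA1 field, at 9.41 and 10.7 TPM, where the other mice other than vehicle mouse 1 had 2.82 to 3.95 TPM. Prox1, a marker of dentate granule cells, was 6.69 and 7.49 TPM in them and 3.32 to 6.35 TPM in the same other mice. Wfs1, the other hippocampal marker detected, was 61.6 TPM in siponimod mouse 4, the highest of its group, but 44.4 TPM in control mouse 5, below the 56.6 TPM of control mouse 3. Over all 3 markers the summed TPM was 43.2 to 64.7 in controls, 42.1 to 63.4 in vehicle mice 2 to 5 and 54.7 to 79.7 in siponimod mice. Their part in the values of Gria1 and Gabra5 was not tested. With control mouse 5 and siponimod mouse 4 left out, 0 of 39 subunit genes were called in any comparison, with vehicle mouse 1 kept or left out.

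Gabbr1 was the most abundant of the 42 genes. GABA-B receptors pair the GABA-binding product of Gabbr1 with that of Gabbr2, which couples to the G protein. Gabbr1 measured 427, 427, 411, 433 and 450 TPM in control mice, 203, 396, 390, 430 and 397 TPM in the vehicle group, and 410, 417, 433, 401 and 420 TPM in siponimod mice. Gabbr2 measured 94.2, 101, 104, 95.2 and 98.8 TPM in control mice, 13.9, 96.7, 93.8, 95.5 and 90.7 TPM in the vehicle group, and 99, 111, 110, 92.4 and 97.2 TPM in siponimod mice. Groups overlapped for both genes, though for Gabbr1 vehicle mice 1, 2, 3 and 5 lay below every control mouse and only vehicle mouse 4 lay among them. The fold change of Gabbr1 in vehicle against control, without vehicle mouse 1, was -0.06 (95% interval -0.14 to 0.02, adjusted p = 0.263, limma). Gabbr1 held 81.3% ± 0.99 of GABA-B transcripts in controls and 93.6% in vehicle mouse 1.

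In the order of control levels, Gabbr1 (430 ± 14.1 TPM, n = 5) was followed by Grin1 (273 ± 11.1), and Gria2 (232 ± 18.2) was also among the highest. The ranges of neighbours in that order did not overlap at 5 places. Among them were the steps from Gabbr1 to Grin1, from Grik5 (117 ± 5.86) to Gria3 (99.1 ± 6.49) and from Grid1 (21.4 ± 0.449) to Gabrb1 (17.0 ± 1.95). Neighbours at all other places overlapped.

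**Figure D3:**
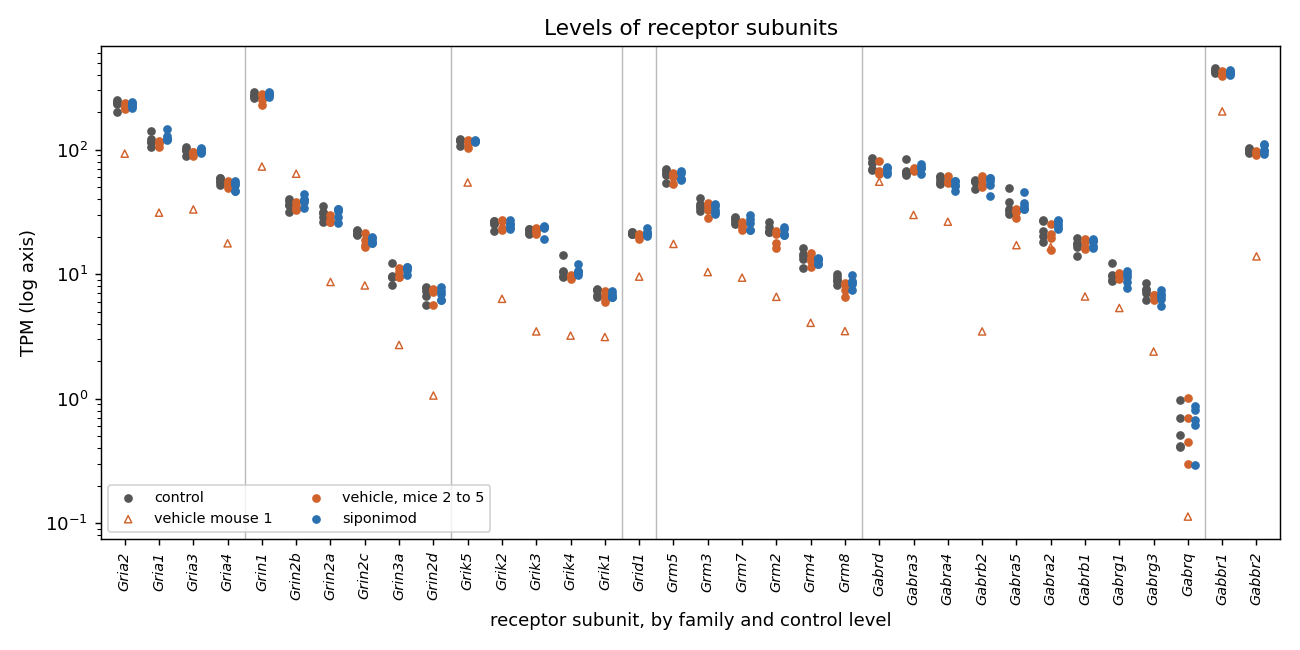
TPM on a log axis of 34 of the 39 tested subunit genes in each mouse, ordered by family and by control mean within a family; filled circles are control, vehicle and siponimod mice from left to right, and the open triangle is vehicle mouse 1. The 3 groups lie on each other for nearly every gene, and the triangle lies below them except for Grin2b, where it lies above, and for Gabra2, where it lies among the vehicle mice.

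Vehicle mouse 1 departed from the other vehicle mice far more than these differed from each other, and by very different amounts for subunits of the same receptor. It had the lowest value of all 15 mice for 37 of the 39 genes, as it had for 76.2% of all tested genes. Its median offset from the other vehicle mice was -1.32 log2 over the 39 genes and -0.89 over all tested genes, and 33 of the 39 lay below the median gene. Gabrb2 had 3.47 TPM there against a mean of 55.7 TPM in the other vehicle mice, Gabbr2 13.9 against 94.2 TPM, Grik3 3.47 against 22.3 TPM and Grin2d 1.06 against 6.96 TPM. The gap was small for Gabra2, at 16.5 against 20.4 TPM, and for Gabrd, at 55.3 against 69.6 TPM. Grin2b went the other way, at 64.1 against 34.8 TPM, and so held 40.6% of NMDA receptor transcripts there. Relative to the median gene, the median absolute offset of the 39 genes was 0.56 log2 in that mouse and 0.05 to 0.15 in the other 14.

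The offset of vehicle mouse 1 ran with transcript length over genes in general. Across all tested genes the median relative offset of vehicle mouse 1 ran from 0.76 log2 in the shortest of 10 length classes to -0.66 in the longest, with a Spearman rank correlation of -0.53 over genes of that library. The longest annotated transcript of the 39 subunit genes had a median of 5248 bases against 3053 bases for all tested genes, and 30 of the 39 were among the longest 30% of genes. Within the 39 the Spearman rank correlation was -0.24. Grin2b has the longest transcript of the 39, at 24060 bases, and was the gene with the highest offset, while Gabrb2, with the lowest, has 3989 bases. These correlations are given as a description, since genes of one library are not independent replicates.

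**Figure D4:**
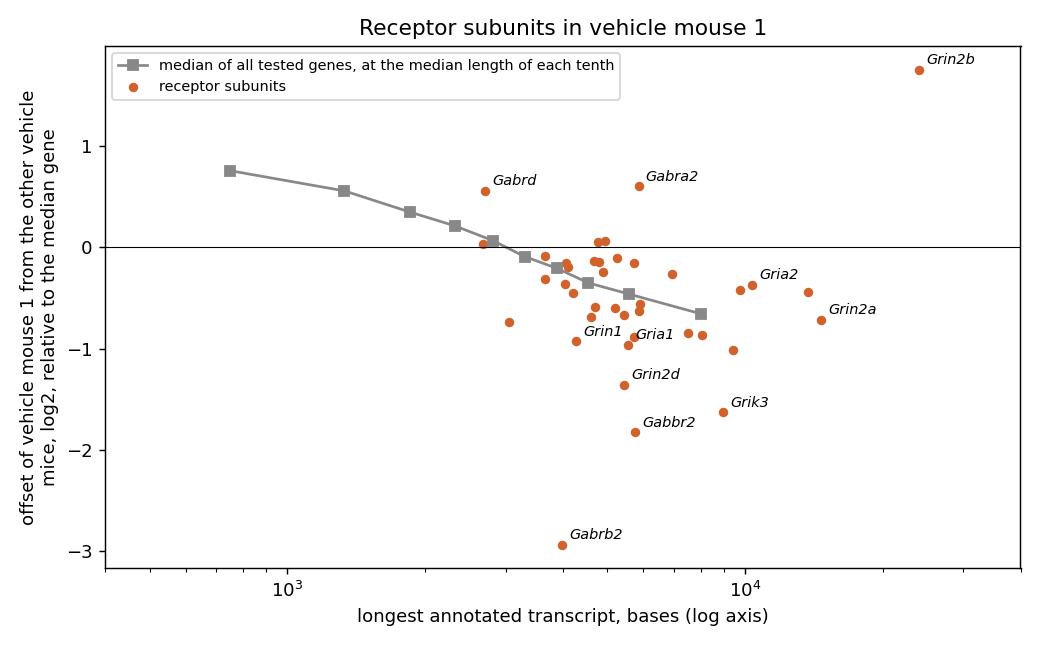
Offset of vehicle mouse 1, set against the other vehicle mice (log2, relative to the median gene) against the longest annotated transcript of each subunit gene (orange points, log axis); grey squares are medians of all tested genes in 10 classes of length. The squares fall from 0.76 to -0.66, while the points scatter from -2.94 for Gabrb2 to 1.76 for Grin2b.

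Partner genes were taken as 5 lists with 65 tested genes in all. They cover release, uptake and turnover of the transmitters, auxiliary subunits, and scaffold and other partners of the receptors. The GABA list also holds the chloride transporter genes Slc12a2 and Slc12a5. The lists were not limited to genes of neurons, and the part of glia in the calls below was not tested. With all mice, limma called 0 of 10 genes of glutamate release, uptake and turnover, 0 of 9 of GABA synthesis, release and uptake, 0 of 17 AMPA and kainate auxiliary subunits, 0 of 17 glutamate receptor scaffold genes and 0 of 12 GABA receptor partners in each comparison. When vehicle mouse 1 was left out, 5 of the 65 genes passed in vehicle against control (7.69%, beside 3.68% of all tested genes), 3 in siponimod against control (4.62%, beside 2.78%) and 0 in siponimod against vehicle. In the glutamate list, Slc1a3, the astrocytic glutamate transporter GLAST, was higher in vehicle than in control mice (0.34 log2, adjusted p = 0.0379) and in siponimod than in control mice (0.30, adjusted p = 0.0335), while Glul, glutamine synthetase of glia, was lower in both (-0.27, adjusted p = 0.0186, and -0.27, adjusted p = 0.0333). In the GABA list, Slc12a2, the chloride importer NKCC1, was lower in both (-0.51, adjusted p = 0.00253, and -0.52, adjusted p = 0.00251), and Abat, which breaks GABA down, was higher in vehicle than in control mice (0.25, adjusted p = 0.044). Of the scaffold genes, Dlg4, which encodes PSD-95, was lower in vehicle than in control mice (-0.15, adjusted p = 0.0331). None of the 17 auxiliary subunits and none of the 12 GABA receptor partners passed in any comparison without vehicle mouse 1, and no gene of the 5 lists did in siponimod against vehicle. In that last comparison, 6 of 17 auxiliary subunits and 6 of 17 scaffold genes had an unadjusted p under 0.05 in limma, beside 8.48% of all tested genes. This was so for 1 of 10 genes of the glutamate list, 0 of 9 of the GABA list and 2 of 12 GABA receptor partners. With all mice it was so for 3 of 17 auxiliary subunits and 1 of 17 scaffold genes, beside 4.93% of all.

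No marker of neurons passed the test with all mice: 0 of 7 pan-neuronal, 0 of 6 excitatory and 0 of 7 inhibitory neuron markers were called in any comparison. At an unadjusted p under 0.05, limma gave 3 of the 6 excitatory markers in vehicle against control with all mice (9.94% of all tested genes). It gave 2 without vehicle mouse 1 (15.7% of all). Their median relative fold change was -0.22 log2 with that mouse and -0.16 without it, and -0.13 in siponimod against control. When vehicle mouse 1 was left out, 1 inhibitory neuron marker passed, the interneuron peptide gene Vip, which was higher in siponimod than in control mice (0.23 log2, adjusted p = 0.0202, limma). Oligodendrocyte markers had median relative fold changes of -2.43 log2 in vehicle against control and -2.24 in siponimod against control, with 8 of 8 called in each and 0 of 8 in siponimod against vehicle. Of 7 astrocyte markers, the filament gene Gfap was higher in each comparison with controls with all mice (2.07 and 1.70 log2), and Gfap, Slc1a3, Aldh1l1 and Gjb6 were without vehicle mouse 1. Of 7 microglial markers, the lipid receptor gene Trem2 was higher in vehicle against control with all mice (1.33 log2), and 3 markers were without vehicle mouse 1, Trem2 and Aif1 among them. P2ry12 went the other way, with means of 36.9 TPM in controls and 32.5 TPM in vehicle mice 2 to 5. The remaining microglial markers had means above controls there. Of 4 endothelial markers, the tight junction gene Cldn5 was lower in vehicle against control without vehicle mouse 1 (-0.40 log2). Pecam1 (12.3 and 11.7 TPM in controls and vehicle mice 2 to 5), Flt1 (22.4 and 22.9) and Tek (6.66 and 6.72) did not pass. None of the tested markers of oligodendrocyte precursors (5), striatum (6), hippocampus (3), thalamus (4), cerebellum (4) and choroid plexus (4) passed in any comparison, with that mouse or without it. Summed TPM of the neighbouring regions varied between mice of a group, from 394 to 848 for striatal and from 35.2 to 2340 for choroid plexus markers in controls. Thalamic markers summed to 33.7 to 80.2 TPM in controls, 34.2 to 104 TPM in vehicle mice 2 to 5 and 31.8 to 42.1 TPM in siponimod mice. Their median relative fold change in siponimod against vehicle was -0.64 log2 without vehicle mouse 1, where 3 of 4 had an unadjusted p under 0.05 in limma, and -0.58 with it, where 0 of 4 did. The part of these shifts in cell markers in the subunit values was not tested.

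**Figure D5:**
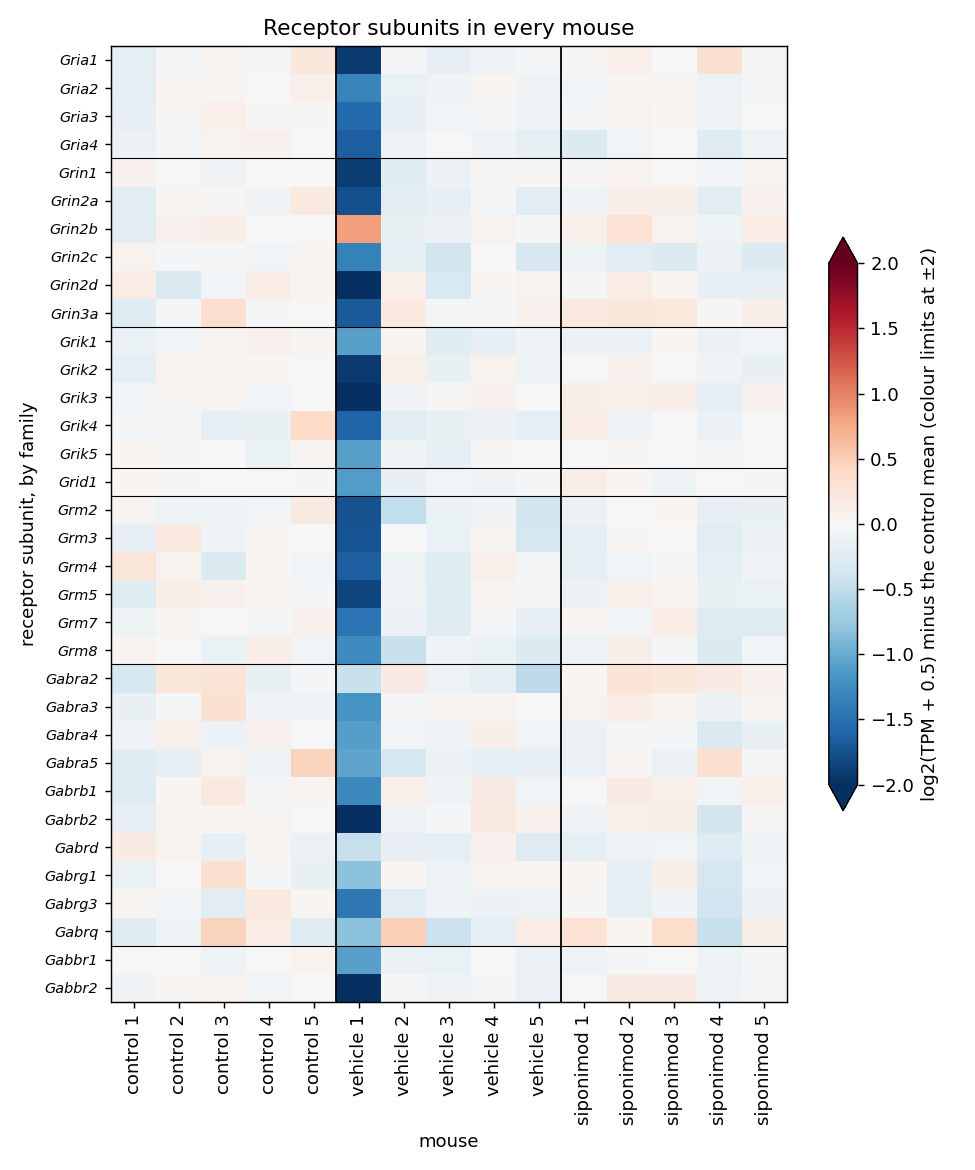
log2(TPM + 0.5) of 34 of the 39 tested subunit genes in each of the 15 mice, minus the control mean of the gene (blue lower, red higher; colours stop at ±2; black lines part groups and families). Vehicle mouse 1 is blue in nearly every row and red for Grin2b, and the other 14 mice are pale throughout.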

How the data were processed

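RNA of 15 mice was sequenced. The labels' protocols name a stranded total RNA kit with ribosomal RNA depletion, whereas the tables open with the words 3′ mRNA analysis, so the library type is uncertain. The submitters' processing notes list the build mm10 and the tools Salmon 1.4.0, STAR 2.6.1d, bcl2fastq and Trim Galore 0.6.6, and no annotation. The authors deposited TPM per mouse in 3 tables, 1 for each pair of groups, which were identical where tables share a mouse (largest difference 0). The same deposited tables hold the authors' log2 fold change with its standard error, and p-value and adjusted p-value, per the file headers. TPM keep no depth, so precision rests on the spread between mice.

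Groups came from the labels. Because the values are TPM, the count test of the design was not used. Limma 3.58.1 (R 4.3.3) was fitted to log2(TPM + 0.5) of 17714 genes with 1 model for the 3 groups, leaving 12 residual degrees of freedom, a trend in the moderation and Benjamini-Hochberg adjustment at 0.05. The pseudocount understates fold changes of low genes. Relative fold changes and their 95% intervals are shifted by the median gene, and intervals are not adjusted for the number of genes. Ratios of subunits were computed on TPM + 0.5 and used two-sided exact permutation tests. Coordinates and lengths came from GENCODE M21 on GRCm38, promoters from RefSeq, and the rest used matplotlib 3.10.9, scipy 1.17.1, numpy 2.4.6 and pandas 2.3.3 in Python 3.11.15. Alternatives changed the pseudocount, filter, scaling, weights, groups fitted and mice used.

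The subunit genes, the lists of partner and marker genes and the tests were chosen with earlier results of these data known. Every mouse's value is given for a set of main cortical subunits and for any called gene (there was none); Grin2c, Gria4, Grm2, Grid1, Gabra2, Gabra5, Grm8, Fibcd1, Prox1 and the genes named for vehicle mouse 1 were named after their values were seen. Some of the genes the rule takes are not reported here.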

Additional observations from a re-analysis of the deposited data

Results flagged for a closer look

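Values were compared within each group of 5 mice for the named subunits, the family sums and the 3 ratios, 78 groups in all. A mouse was noted where its gap to the nearest other mouse was more than 0.71 of the range of the group, which chance gives in about 1 group in 20. This held in 23 groups, of which 20 concerned vehicle mouse 1.

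Vehicle mouse 1 was far from the other vehicle mice for Gria1 (31.2 TPM), Gria2 (92.9 TPM), Gria4 (17.7 TPM), Grin1 (73.2 TPM), Grin2a (8.66 TPM), Grik2 (6.34 TPM), Grm5 (17.5 TPM), Gabrb2 (3.47 TPM), Gabbr1 (203 TPM) and Gabbr2 (13.9 TPM), all low, and for Grin2b (64.1 TPM), high. Its family sums were low throughout, with 175 TPM for AMPA, 158 TPM for NMDA, 70.7 TPM for kainate, 11.4 TPM for delta, 58.8 TPM for metabotropic, 357 TPM for GABA-A and 217 TPM for GABA-B receptors. Its log2 ratio of Grin2a to Grin2b was -2.82 and that of Gria1 to Gria2 was -1.56. Apart from the added 0.5 TPM, a ratio within a library does not move with a common scaling of that library.

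In 3 groups another mouse stood apart. Gria1 was 147 TPM in siponimod mouse 4, where the log2 ratio of Gria1 to Gria2 was -0.566, the highest of its group. Gabrb2 was 48.6 TPM in control mouse 1, the lowest of its group.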

How the results depend on the processing

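The count of subunit genes called stayed at 0 in each of the 3 comparisons under all 30 alternatives, including every mouse left out in turn. The smallest adjusted p of any subunit gene over these settings was 0.0984 in vehicle against control (Grin2c, with sample weights), 0.0946 in siponimod against control (Grin2c, with the 2 groups fitted alone) and 0.336 in siponimod against vehicle (Gabra2, with sample weights). For the 16 named subunits, 0 of 1440 values under alternatives had an adjusted p under 0.05, and 94 had the other sign than with all mice (20 in vehicle against control, 16 in siponimod against control and 58 in siponimod against vehicle).

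The count over all genes moved more. In vehicle against control (220 with all mice) it was 426 with libraries scaled to a common median, 560 with libraries centred within 10 classes of transcript length, 727 with sample weights, 768 without vehicle and siponimod mice 1, 676 and 704 without vehicle mouse 1 with either scaling, and 124 and 450 without control mouse 5 and siponimod mouse 4, with vehicle mouse 1 kept or left out. In siponimod against control (132 with all mice) the same settings gave 209, 278, 518, 352, 527, 518, 73 and 291, and the 2 groups fitted alone gave 507. In siponimod against vehicle (0) sample weights gave 1, as did leaving out vehicle mouse 1, control mouse 5 and siponimod mouse 4, and limma gave 874 genes at an unadjusted p under 0.05 with all mice. Leaving out 1 mouse gave 128 to 652, 82 to 492 and 0 to 0 calls, and the highest were without vehicle mouse 1. In vehicle against control the count was 138, 128 and 142 without control mouse 1, 4 and 5, and in siponimod against control it was 82 without control mouse 1 and 82 without control mouse 4. The cause was not tested. The settings with length together with vehicle mouse 1, and those without control mouse 5 and siponimod mouse 4, were chosen after seeing the data. With mouse number as a replicate block, 178, 111 and 0 genes and 0 subunit genes were called; the correlation of mice with the same number was -0.06 to 0.20, and not every mouse correlated best with its own number.

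In simulated data of this size, the fit with all mice recovered 56% of log2 changes of 1 in vehicle against control. It recovered 16% of changes of 0.5, so calls with all mice had little power for small changes in that simulation. In the real data vehicle mouse 1 had a median offset of -0.89 log2 from the other vehicle mice over all tested genes. The simulation drew each gene and mouse independently and held no such offset of 1 library. Its spread for each gene was pooled over all 15 mice, vehicle mouse 1 included. The rates describe the simulation and are not a measured power of these data.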
